A study of Homo sapiens with 30 samples.

Results

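To ask how depletion of one chromatin-associated long noncoding RNA (lncRNA) differed from depletion of another, the H3K27me3 peaks found upon depletion of LINC00641 (ΔLINC00641) were set directly against those found upon depletion of SETD5-AS1 (ΔSETD5-AS1), without the control list as a reference. The comparison took in every peak of both lists, 184500 of the 431864 peaks in the 5 lists of the series. The ΔLINC00641 list held 86099 of them and the ΔSETD5-AS1 list 98401. The cells were HEK293T, a widely used line derived from human embryonic kidney. They received a single antisense oligonucleotide (ASO) per knockdown, named LINC00641_ASO2 or SETD5_AS1_ASO1 in the track lines, and were fixed with formaldehyde 48 h later. The control H3K27me3 and H3K9me3 peaks mentioned below came from HEK293T cells given a negative control ASO. Each knockdown had 3 ChIP replicates and 3 input replicates, 12 of the 30 samples, and the replicates were pooled before peaks were called. The spread between replicates is therefore unknown for every value given here, no test between the knockdowns was made, and each comparison describes a pair of pooled lists.

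H3K27me3, trimethylation of lysine 27 on histone H3, is deposited by Polycomb repressive complex 2 and is typical of silent developmental genes. The mark covers broad domains and also much of an inactive X chromosome. ASOs pair with a complementary RNA and lead to its cleavage by RNase H in the nucleus, which makes them a common means to deplete lncRNAs. A weaker H3K27me3 peak in bulk chromatin can stem from fewer cells with the mark or from less of the mark per cell, and these cannot be told apart. The residual amounts of LINC00641 and SETD5-AS1 RNA were not analysed here, because peaks of a histone mark give no RNA level, and for the same reason the cell line was not checked against marker genes.

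The 2 ASOs are shown first because they define the knockdowns. Every base is in capitals since the whole oligonucleotide pairs with its target.
LINC00641-ASO-2: GATAGTGGTATAGTAACTGG
SETD5-AS1-ASO-1: ATCAATGAGGATGTCATCAC
Each ASO is 20 nt long with 40% G and C. The complement of the LINC00641 ASO, CCAGTTACTATACCACTATC, occurred once in the genome, at chr14:21668698-21668717 (hg19, minus strand), in an exon of LINC00641. The complement of the SETD5-AS1 ASO, GTGATGACATCCTCATTGAT, occurred once, at chr3:9432018-9432037 (minus strand), in an exon of SETD5-AS1, which the annotation lists as THUMPD3-AS1. Neither ASO had another genomic site with up to 1 mismatch or another annotated transcript with up to 2 mismatches. Both target genes lay far from any called H3K27me3 peak in both lists. The nearest peak to the LINC00641 gene was 130712 bp away in ΔLINC00641 and 130687 bp away in ΔSETD5-AS1, and the nearest to SETD5-AS1 was 134864 and 136838 bp away.

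The lists differed in depth. The ChIP fragments covering an average base, the genome-wide level recovered from the peak values, numbered 3.78 in ΔLINC00641 and 4.43 in ΔSETD5-AS1, which corresponds to about 38.1 M and 45.0 M fragments (M, 1e6). Thus ΔSETD5-AS1 was sequenced 1.17 times as deeply. The median peak summit held 19 fragments in ΔLINC00641 and 20 in ΔSETD5-AS1. Where the local input was at the genome-wide level, the weakest called peak held 11 fragments in ΔLINC00641, 2.91 times that level, and 12 in ΔSETD5-AS1, 2.71 times. A region without a peak can thus still carry a weaker signal.

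Most H3K27me3 peaks of each knockdown overlapped a peak of the other, and most of those found upon one knockdown only were weak and lay within 10 kb of a peak of the other list. Of the ΔLINC00641 peaks, 31688 (36.8%, Wilson 95% interval 36.5 to 37.1%) overlapped no ΔSETD5-AS1 peak by even 1 bp. Of the ΔSETD5-AS1 peaks, 43193 (43.9%, 43.6 to 44.2%) overlapped no ΔLINC00641 peak. Counting error alone is in these intervals, which take each peak as an independent draw. The shared bases amounted to 35.4 Mb, which was 55.2% of the ΔLINC00641 list, 50.7% of the ΔSETD5-AS1 list and 35.9% of the bases in either. For scale, the ΔLINC00641 and control lists shared 34.9% of the bases in either, and the ΔSETD5-AS1 and control lists 34.3%.

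The share in one list only fell with peak strength. The strength used here is −log10 q, the significance that the peak caller gave each peak within its own list. In the weakest range, a −log10 q of 1.3 to 2, 56.8% (55.6 to 57.9%) of ΔLINC00641 peaks and 63.9% (62.9 to 64.9%) of ΔSETD5-AS1 peaks lacked a partner. From 5 to 10 the shares were 19.2% (18.7 to 19.7%) and 24.3% (23.8 to 24.8%). From 10 to 20 they were 4.95% (4.34 to 5.65%) and 4.41% (3.71 to 5.23%), with overlapping intervals. At 20 and above, 5 of 724 ΔLINC00641 peaks and 1 of 301 ΔSETD5-AS1 peaks lacked a partner.

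**Figure D1:**
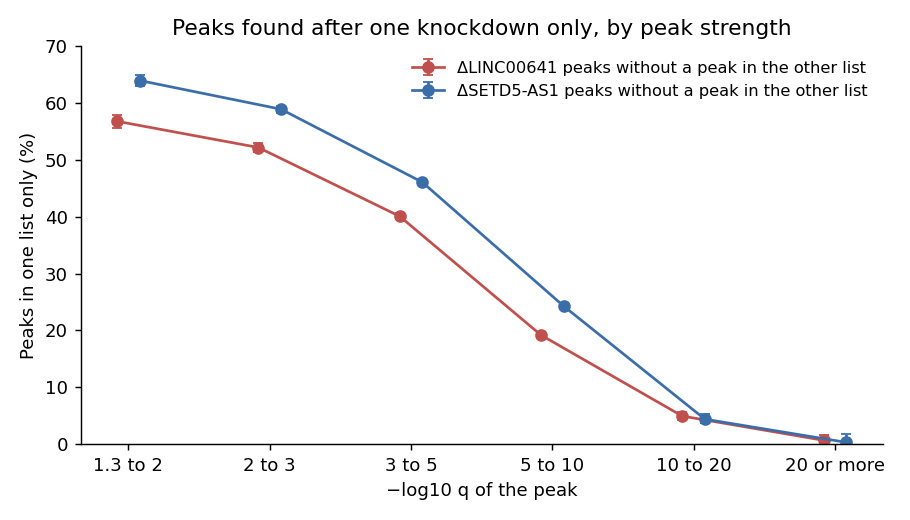
The share of peaks without an overlapping peak in the other list (vertical axis, %) is plotted against the −log10 q of the peak (horizontal axis, 6 ranges) for ΔLINC00641 (red) and ΔSETD5-AS1 (blue). Bars are Wilson 95% intervals, and both curves fall from above 56% in the weakest range to below 1% in the strongest.

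Of the peaks in one list only, 44.9% in ΔLINC00641 and 37.8% in ΔSETD5-AS1 had a peak of the other list within 1 kb, and 87.9% and 83.5% had one within 10 kb. The median distance was 1205 bp in ΔLINC00641 and 1596 bp in ΔSETD5-AS1. When the peaks of both lists were joined across gaps of up to 10 kb, 16988 domains resulted. The 9120 domains with peaks from both lists held 96.0% of the ΔLINC00641 peaks and 93.7% of the ΔSETD5-AS1 peaks, and spanned 289 of 298 Mb. The domains from a single list, 2919 for ΔLINC00641 and 4949 for ΔSETD5-AS1, were mostly single peaks (2531 and 4044 of them).

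Peaks in one list only were narrower than shared peaks and lower in input. Their median width was 389 bp against 640 bp in ΔLINC00641, and 388 bp against 652 bp in ΔSETD5-AS1. Their median summit held 17 fragments against 20 in ΔLINC00641 and 18 against 21 in ΔSETD5-AS1. The local input was at the genome-wide level in 40.7% of peaks in ΔLINC00641 only and 25.2% of the shared ones, and in 49.6% and 30.9% for ΔSETD5-AS1. A wider peak more readily overlaps a peak of the other list by 1 bp, so the definition itself favours narrow peaks in one list only. This holds at equal strength as well. Within a −log10 q of 5 to 10, peaks in one list only had a median width of 467 bp against 862 bp in ΔLINC00641, and 446 bp against 891 bp in ΔSETD5-AS1.

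Chromosome X carried 31.3% of the ΔLINC00641 and 29.7% of the ΔSETD5-AS1 peaks. It held 30.6% of the peaks in ΔLINC00641 only and 27.3% of those in ΔSETD5-AS1 only. On it, 36.0% of ΔLINC00641 and 40.4% of ΔSETD5-AS1 peaks lacked a partner. The shares over chromosomes 1 to 22 and X ranged from 31.2% (chromosome 15) to 63.2% (chromosome 13) in ΔLINC00641 and from 32.9% (chromosome 19) to 75.9% (chromosome 13) in ΔSETD5-AS1. Chromosome 13 had the fewest peaks in each list, 209 and 336. The number of ΔLINC00641 peaks was 0.875 times that of ΔSETD5-AS1 peaks and was the lower on 23 of 23 chromosomes, from 0.622 times on chromosome 13 to 0.994 times on chromosome 21.

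**Figure D2:**
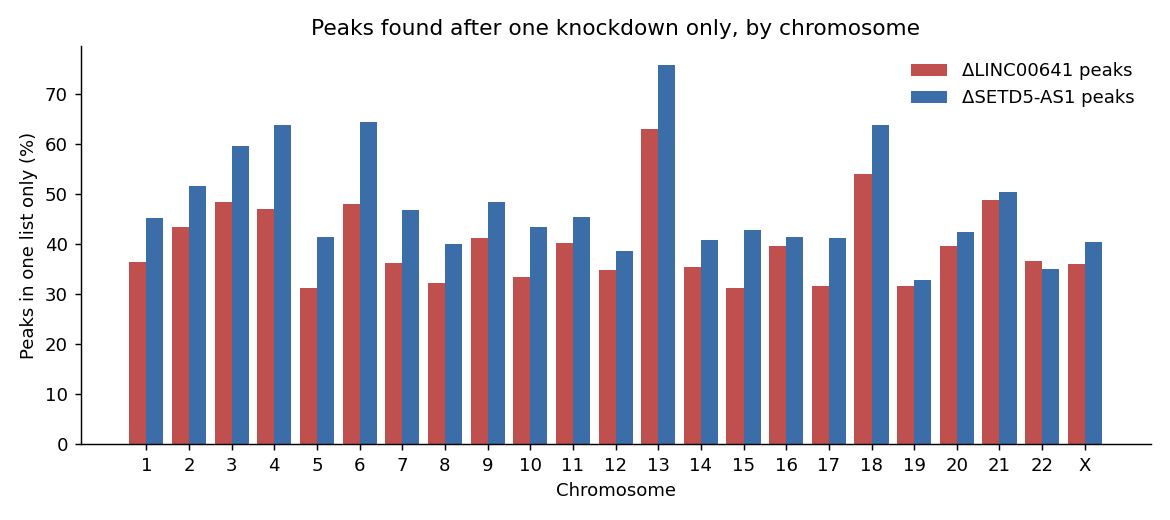
The share of peaks without an overlapping peak in the other list (vertical axis, %) is plotted for each chromosome (horizontal axis) for ΔLINC00641 (red bars) and ΔSETD5-AS1 (blue bars). The highest bars are those of chromosome 13, at 63.2% and 75.9%, and chromosome 22 is the one place where the ΔLINC00641 bar is the taller, at 36.6% against 35.1%.

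The lists differed modestly in base composition, with a median peak GC content of 46.4% in ΔLINC00641 and 45.6% in ΔSETD5-AS1. Peaks on chromosomes 1 to 22 and X were ranked by the share of G and C in their hg19 sequence and split into 5 equal groups over both lists. In the lowest group, at up to 41.4% GC, there were 0.736 times as many ΔLINC00641 as ΔSETD5-AS1 peaks. The ratio rose through 0.793, 0.872 and 0.932 to 1.08 in the highest group, above 50.9% GC, the single group with more ΔLINC00641 peaks. The share of ΔSETD5-AS1 peaks without a partner fell from 58.0% in the lowest group to 34.4% in the highest. That of ΔLINC00641 peaks was 44.8% in the lowest, 32.7% in the middle and 37.4% in the highest. For peaks of equal strength, a −log10 q of 5 to 10, the median GC content was 48.1% for peaks in ΔLINC00641 only and 45.6% for peaks in ΔSETD5-AS1 only, against 47.2% and 46.5% for shared peaks. Depth and local input differed between the lists as well, and their part in the GC difference was not tested.

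The overlap with H3K9me3, the mark of constitutive heterochromatin, was a readout that the choice of peaks did not use. The summit of 8.14% (7.92 to 8.38%) of shared ΔLINC00641 peaks lay in an H3K9me3 peak of control cells, against 5.59% (5.34 to 5.85%) of those in ΔLINC00641 only. For ΔSETD5-AS1 the shares were 8.05% (7.82 to 8.28%) and 6.13% (5.91 to 6.36%). In every range of −log10 q up to 10 the share was also the lower in peaks of one list only. From 10 to 20 the order turned for ΔSETD5-AS1, with 20.3% (14.2 to 28.3%) of 123 peaks in that list only and 12.7% (11.5 to 14.0%) of the shared ones. As regards genes, summits within 1 kb of a gene start made up 4.38% of the peaks in ΔLINC00641 only, 3.10% of those in ΔSETD5-AS1 only, and 5.25% and 5.19% of the shared peaks. Among peaks with no peak of the other list within 10 kb these shares were 8.52% in ΔLINC00641 (3840 peaks) and 4.13% in ΔSETD5-AS1 (7105 peaks).

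Individual peaks showed how the classes differed. Among peaks with an input of at most 2 times the genome-wide level and no peak of the other list within 10 kb, the one in ΔLINC00641 with the largest −log10 q, 31.4, lay in an intron of FMN2, which encodes the actin nucleator formin 2, at chr1:240348237-240348826. Its summit held 52 fragments (exact Poisson 95% interval 38.8 to 68.2), 13.7 times the genome-wide level, over an input of 1.24 times that level, and its fold enrichment was 9.30. The nearest ΔSETD5-AS1 peak was 224176 bp away. The 300 bases around its summit, chr1:240348207-240348506 (plus strand), were chosen after their values had been seen and are shown because they are an array of tandem copies. Here and below, CG dinucleotides, the sites of DNA methylation, are in capitals.
FMN2 intron: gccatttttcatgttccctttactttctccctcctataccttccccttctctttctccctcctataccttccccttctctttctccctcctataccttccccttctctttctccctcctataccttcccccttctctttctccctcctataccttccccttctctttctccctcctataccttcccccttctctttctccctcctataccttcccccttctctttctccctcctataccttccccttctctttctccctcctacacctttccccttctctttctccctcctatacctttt
The window holds no CG. The run ccccttctctttctccctcc occurs 9 times in it. A control H3K27me3 peak overlapped this peak as well.

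The strongest pair under the same input limit also sat on an array. It lay in an intron of ADAP1, which encodes an adaptor with Arf GTPase-activating function, at chr7:944235-945447 in ΔLINC00641 and chr7:944195-946166 in ΔSETD5-AS1. The summits held 90 (72.4 to 111) and 99 (80.5 to 121) fragments, 23.8 and 22.3 times the genome-wide level, with overlapping intervals. The 300 bases at chr7:945171-945470 (plus strand) were likewise chosen afterwards, for comparison with the FMN2 array.
ADAP1 intron: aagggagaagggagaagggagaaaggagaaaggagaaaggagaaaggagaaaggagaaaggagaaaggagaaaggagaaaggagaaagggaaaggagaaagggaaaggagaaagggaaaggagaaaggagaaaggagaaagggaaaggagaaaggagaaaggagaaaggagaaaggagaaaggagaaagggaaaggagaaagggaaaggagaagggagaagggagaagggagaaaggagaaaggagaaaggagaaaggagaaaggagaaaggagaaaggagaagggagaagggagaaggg
In this window 90.4% of bases equal the base 7 positions further on, and for FMN2 73.7% equal the base 57 further on. Stricter matches, which the ADAP1 window meets and the FMN2 window does not, were rare. A match of at least 80% at some distance up to 60 bases was found in 0.258% of shared ΔLINC00641 windows and in 0.146% of those in ΔLINC00641 only. Where −log10 q reached 10 it was found in 62 of 4688 shared ΔLINC00641 windows, 2 of 207 in that list only, 48 of 2968 shared ΔSETD5-AS1 windows and 4 of 124 in that list only. Reads from near-identical copies cannot be placed with certainty.

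The other strongest isolated peaks in ΔLINC00641 only lay in introns of GALNT9, a mucin-type glycosyltransferase gene (chr12:132877269-132878260, 38 fragments, 26.9 to 52.2), and of NT5E, which encodes the ectonucleotidase CD73 (chr6:86160031-86160669, 37 fragments, 26.1 to 51.0). They stood at 10.0 and 9.78 times the genome-wide level, and the nearest ΔSETD5-AS1 peaks were 25970 and 11091 bp away. In ΔSETD5-AS1 only, the strongest was intergenic, 11797 bp from DDX60, an antiviral helicase gene (chr4:169251458-169252188, 38 fragments, 26.9 to 52.2), at 8.57 times the genome-wide level. The others lay in the pseudogene ZEB2P1 (chr4:16373979-16374487, 29 fragments, 19.4 to 41.7) and 57200 bp from MAGEE1 on chromosome X (chrX:75708725-75709342, 35 fragments, 24.4 to 48.7). Control H3K27me3 peaks overlapped all 3 of the ΔLINC00641 peaks and 2 of the 3 ΔSETD5-AS1 peaks, the DDX60 one being the exception.

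At places where each list had exactly one peak, enrichment was a little higher in ΔLINC00641. Over 40283 such pairs the median log2 ratio of fold enrichment (fragments over local input, each with a pseudocount), ΔLINC00641 over ΔSETD5-AS1, was 0.081, a factor of 1.06, and it was positive on 23 of 23 chromosomes (0.040 to 0.120, SD over chromosomes 0.021). Single pairs scattered far more, with 5th and 95th percentiles at -0.573 and 0.738. A pair needs a call in both lists, and the calling thresholds differed. At the genome-wide input the lowest fold enrichment called was 2.51 in ΔLINC00641 and 2.39 in ΔSETD5-AS1. All chromosomes of a list share its depth and threshold, so their common sign adds no independent evidence. The part of the thresholds in the median ratio was not tested. Fold enrichment was at least 1.5 times higher in ΔLINC00641 in 4092 pairs (10.2%) and in ΔSETD5-AS1 in 1894 (4.7%). In 3940 of the 4092 the fragments over the genome-wide level were also higher in ΔLINC00641. In 1421 of the 1894 they were also higher in ΔSETD5-AS1. For the rest the input alone set the direction, and the median log2 input ratio was 0.662 over the 1894 pairs. The median log2 fold ratio rose over the 5 GC groups from 0.024 to 0.134.

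The pair with the largest ratio towards ΔLINC00641 among pairs with at least 30 fragments at both summits lay in an exon of MIAT, a lncRNA gene, at chr22:27052992-27054717 in ΔLINC00641. It had 76 fragments (59.9 to 95.1) in ΔLINC00641 and 56 (42.3 to 72.7) in ΔSETD5-AS1, which is 20.1 and 12.6 times the genome-wide level, but the input also differed, at 2.19 and 4.46 times that level. The promoter of NKAIN4, which encodes a protein that interacts with the sodium pump, had the smallest of the 3 largest ratios, with 63 (48.4 to 80.6) and 40 (28.6 to 54.5) fragments over inputs of 2.06 and 3.3. At the FAM157D locus on chromosome 7, which came after MIAT, the summits held 63 (48.4 to 80.6) and 70 (54.6 to 88.4) fragments over inputs of 1.01 and 3.20, so that the fragments were 16.7 and 15.8 times the genome-wide level, with overlapping intervals of the fragment numbers.

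In the other direction, the ratio was largest 8358 bp from the pseudogene MLLT10P1 on chromosome 20, with 32 fragments (21.9 to 45.2) in ΔLINC00641 and 61 (46.7 to 78.4) in ΔSETD5-AS1, 8.46 and 13.8 times the genome-wide level. The promoter of ANKRD34B, an ankyrin repeat gene, came next. It held 43 (31.1 to 57.9) and 42 (30.3 to 56.8) fragments over inputs of 5.31 and 1.60, and relative to the genome-wide level its summit was the higher in ΔLINC00641, at 11.4 against 9.47. In an intron of LINC01933 the fragments were 30 (20.2 to 42.8) and 32 (21.9 to 45.2) over inputs of 2.94 and 1.00. Of these 3 named pairs, the MLLT10P1 one alone was the higher in ΔSETD5-AS1 by fragments over the genome-wide level.

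Promoters were examined next, as the places where H3K27me3 bears on gene silencing. A promoter was the window within 1 kb of the 5′ end of a protein-coding gene. Of 20136 genes, 1350 (6.7%) had a peak there in both lists, 388 (1.93%) in ΔLINC00641 only and 232 (1.15%) in ΔSETD5-AS1 only. The shared genes made up 68.5% (66.4 to 70.5%) of the 1970 genes with a peak in either. Although ΔSETD5-AS1 had more peaks and more depth, it had fewer marked promoters, 1582 against 1738. Among 18678 lncRNA genes the counts in one list only were closer, at 297 in ΔLINC00641 and 313 in ΔSETD5-AS1, with 913 in both.

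As with peaks in general, many promoters in one list only had the mark close by in the other list. A peak of the other list lay within 10 kb of the window for 53.4% of the genes in ΔLINC00641 only and 54.7% of those in ΔSETD5-AS1 only. That leaves 181 and 105 genes. The signals were weak. The strongest promoter peak had a median −log10 q of 3.89 and 24 summit fragments in the genes of ΔLINC00641 only, and 3.07 and 21 in those of ΔSETD5-AS1 only, against 8.64 with 36 and 6.55 with 32 fragments in genes marked in both lists. A control H3K27me3 peak was found at 156 (40.2%) of the 388 promoters, 86 (37.1%) of the 232 and 1168 (86.5%) of the 1350. Chromosome X held 22.9% and 20.7% of the genes in one list only and 20.4% of those in both.

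The 2 classes of promoter differed in base composition. The median GC content of the window was 55.4% (quartiles 46.3 and 62.9%) for genes in ΔLINC00641 only and 48.2% (41.3 and 58.0%) for genes in ΔSETD5-AS1 only, with 56.1% for genes in both and 55.0% for genes in neither. The 300 bases around the summit held a median of 10 CG dinucleotides in the first class and 5 in the second. When all genes were split into 5 groups by promoter GC, the lowest group had 104 genes in ΔLINC00641 only and 108 in ΔSETD5-AS1 only, and the highest had 105 and 29. Among genes marked in both lists, the median log2 ratio of fold enrichment rose over these groups from 0.085 (SD between genes 0.379) to 0.319 (SD 0.437). It was 0.184 (SD 0.427) over all 1350, and higher in ΔLINC00641 in 927 of them. It was 0.114 for the 275 genes on chromosome X and 0.230 for the other 1075. The ratio takes the strongest promoter peak of each list, and these peaks need not overlap, as at WNT3A and PGBD5. The calling thresholds differed here as at pairs, and their part in the ratio was not tested.

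**Figure D3:**
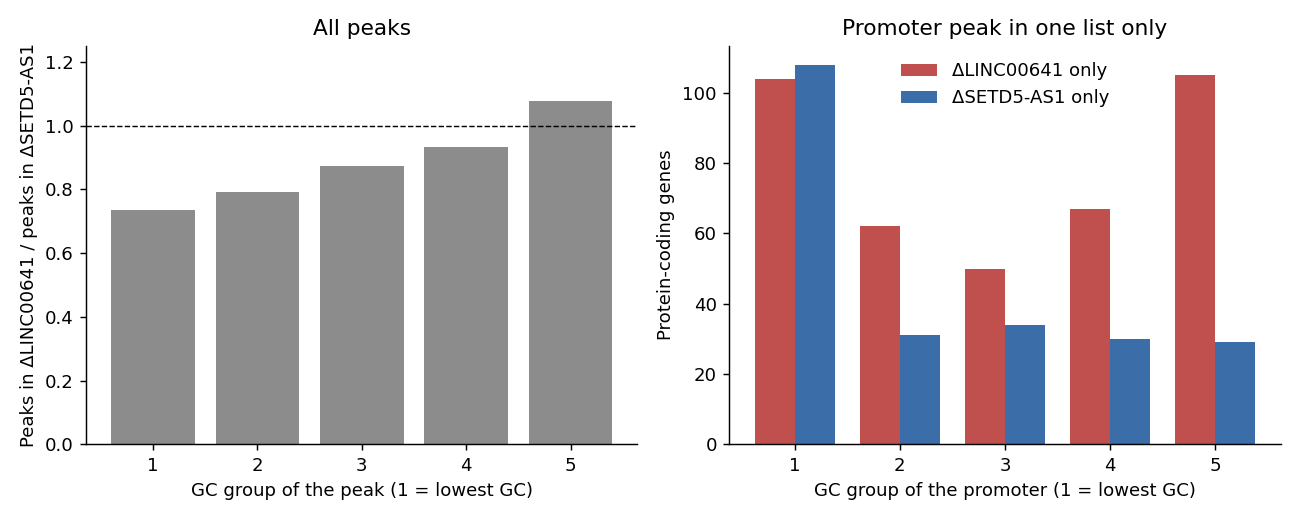
Left, the number of ΔLINC00641 peaks divided by that of ΔSETD5-AS1 peaks (vertical axis) in 5 groups of peak GC content (horizontal axis, dashed line at 1), which rises from 0.736 to 1.08. Right, the number of protein-coding genes with a promoter peak in ΔLINC00641 only (red) or ΔSETD5-AS1 only (blue) in 5 groups of promoter GC content, which is 104 and 108 in the lowest group and 105 and 29 in the highest.

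The sequence under the promoter peak is shown for MUC12 and HNRNPCL2, first by −log10 q in their classes, for PDGFB, which came after REXO1L1 and ADGRB1 among the genes marked in both lists, and for NT5E and GREM1, which were added after their values had been seen because no peak of the other list lay near them. Each is 300 bases of hg19 around the summit, plus strand. A peak that reaches into the promoter window can have its summit outside it, and the summits lay 2475 bp (MUC12), 1196 bp (NT5E), 950 bp (HNRNPCL2), 359 bp (GREM1) and 1419 bp (PDGFB) from the gene start. MUC12 is at chr7:100610221-100610520, NT5E at chr6:86160348-86160647, HNRNPCL2 at chr1:13183226-13183525, GREM1 at chr15:33009696-33009995 and PDGFB at chr22:39639418-39639717.
MUC12, ΔLINC00641 only: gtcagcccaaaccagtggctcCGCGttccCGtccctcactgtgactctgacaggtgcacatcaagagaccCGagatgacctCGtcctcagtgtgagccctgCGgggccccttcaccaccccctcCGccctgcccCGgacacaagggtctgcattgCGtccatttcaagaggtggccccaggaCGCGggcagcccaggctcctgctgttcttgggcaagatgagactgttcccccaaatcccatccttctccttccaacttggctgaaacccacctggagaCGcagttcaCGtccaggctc
NT5E, ΔLINC00641 only: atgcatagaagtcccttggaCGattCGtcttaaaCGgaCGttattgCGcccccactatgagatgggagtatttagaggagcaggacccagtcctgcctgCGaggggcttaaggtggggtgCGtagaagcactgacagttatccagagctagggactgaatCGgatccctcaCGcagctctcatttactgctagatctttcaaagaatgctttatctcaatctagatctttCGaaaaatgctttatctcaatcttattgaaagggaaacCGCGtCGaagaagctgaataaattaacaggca
HNRNPCL2, ΔSETD5-AS1 only: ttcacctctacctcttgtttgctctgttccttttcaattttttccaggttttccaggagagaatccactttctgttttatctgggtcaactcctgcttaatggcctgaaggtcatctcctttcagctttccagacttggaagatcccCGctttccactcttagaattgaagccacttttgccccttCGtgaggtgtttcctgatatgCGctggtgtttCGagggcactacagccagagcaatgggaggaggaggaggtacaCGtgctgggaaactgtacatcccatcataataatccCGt
GREM1, ΔSETD5-AS1 only: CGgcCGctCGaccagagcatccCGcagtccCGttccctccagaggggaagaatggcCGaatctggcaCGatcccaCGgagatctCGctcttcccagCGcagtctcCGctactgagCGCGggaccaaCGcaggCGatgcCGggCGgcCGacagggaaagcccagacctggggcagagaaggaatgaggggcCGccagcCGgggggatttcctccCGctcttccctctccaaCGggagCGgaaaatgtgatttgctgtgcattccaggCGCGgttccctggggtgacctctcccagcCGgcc
PDGFB, both lists, ΔLINC00641 summit: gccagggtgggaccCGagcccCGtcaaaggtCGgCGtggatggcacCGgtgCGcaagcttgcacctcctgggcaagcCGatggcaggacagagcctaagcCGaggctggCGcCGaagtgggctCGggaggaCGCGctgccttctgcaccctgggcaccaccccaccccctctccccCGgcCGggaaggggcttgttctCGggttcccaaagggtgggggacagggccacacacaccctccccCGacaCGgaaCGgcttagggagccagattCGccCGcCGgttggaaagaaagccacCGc
These windows hold 13 (MUC12), 13 (NT5E), 6 (HNRNPCL2), 26 (GREM1) and 23 (PDGFB) CG dinucleotides. For scale, the 300 bases centred on a gene start held a median of 21 over 20090 genes. GREM1, rich in CG, was thus unlike most genes of its class.

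Among the genes in ΔLINC00641 only, several had a ΔSETD5-AS1 partner just outside the window. MUC12, a membrane mucin gene, headed the class by −log10 q, with 95 fragments (76.9 to 116) over an input of 4.97 times the genome-wide level. Its fold enrichment of 4.85 was below those of BCL11B (5.34) and BMI1 (5.77). A ΔSETD5-AS1 peak overlapped the MUC12 peak, 224 bp outside the window. The same held for BCL11B, a zinc finger regulator of T cells and neurons (62 fragments, ΔSETD5-AS1 peak 73 bp outside), for BMI1, a subunit of Polycomb repressive complex 1 (59 fragments, 62 bp outside), for NPNT (47 fragments, 75 bp outside) and for GNAO1 (43 fragments, 85 bp outside). In all, the strongest promoter peak overlapped a ΔSETD5-AS1 peak in 34 of the 388 genes. In the reverse class this was so in 7 of 232.

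Others stood clear of the ΔSETD5-AS1 list. SYT2, which encodes a synaptic vesicle calcium sensor, had 53 fragments (39.7 to 69.3), 14.0 times the genome-wide level, and the nearest ΔSETD5-AS1 peak was 12571 bp from the window. CUX2, a homeobox regulator of upper-layer neurons, had 49 (36.3 to 64.8) with the nearest peak at 13784 bp. NT5E had 37 (26.1 to 51.0) with the nearest at 11458 bp. VSTM2L had 36 (25.2 to 49.8) with the nearest at 61542 bp. The remaining gene of the first 10, TCF24, had 44 fragments and a ΔSETD5-AS1 peak 122 bp outside the window that its own peak did not overlap.

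The genes in ΔSETD5-AS1 only had lower peaks. HNRNPCL2 led with 45 fragments (32.8 to 60.2), 10.1 times the genome-wide level, and the nearest ΔLINC00641 peak was 1066 bp from the window. It belongs to a family of near-identical copies, as does USP17L19 (51 fragments over an input of 4.08), so the origin of its reads is uncertain. GREM1, a secreted antagonist of bone morphogenetic proteins, had 27 fragments (17.8 to 39.3) at the genome-wide input, 6.09 times that level (4.01 to 8.86), with no ΔLINC00641 peak within 369696 bp. The weakest ΔLINC00641 peak at such an input stood at 2.91 times, but the ΔLINC00641 input at GREM1 is unknown. GREM1 was also named for its large −log10 q, and its interval does not cover that choice. LYVE1, a hyaluronan receptor of lymphatic endothelium, had 23 fragments (14.6 to 34.5) and the nearest ΔLINC00641 peak 398402 bp away. The X-linked genes TAF7L, EGFL6, SLITRK4 and CXorf51B had 29, 26, 24 and 29 fragments, with ΔLINC00641 peaks 1915, 65, 335 and 3688 bp outside the window. DIO3, a thyroid hormone deiodinase gene, had 28 and OR2F1, an odorant receptor gene, 25, with ΔLINC00641 peaks at 1499 and 2063 bp.

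Promoters marked in both lists were mostly the higher in ΔLINC00641. CALY, a neuronal vesicle protein gene, had 141 fragments (119 to 166) in ΔLINC00641 and 83 (66.1 to 103) in ΔSETD5-AS1, 37.3 and 18.7 times the genome-wide level, over inputs of 2.83 and 2.62. PDGFB, a growth factor gene, had 100 (81.4 to 122) and 78 (61.7 to 97.3) fragments, 26.4 and 17.6 times that level. Its fold enrichment was nevertheless the lower in ΔLINC00641, at 6.88 against 7.76, since the inputs were 3.62 and 2.07. SHH, the hedgehog ligand, had 102 (83.2 to 124) and 86 (68.8 to 106), and GRM8, a glutamate receptor gene, had 70 (54.6 to 88.4) and 59 (44.9 to 76.1). REXO1L1, the strongest of the class with 356 and 344 fragments, lies in a tandem gene array with an input of 17.2 and 18.0 times the genome-wide level. ADGRB1, NTRK3, TFAP2B, ANKRD34C and SV2B, the remaining genes of the first 10, had log2 ratios of 0.23, 0.47, -0.28, 0.27 and 0.15.

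**Figure D4:**
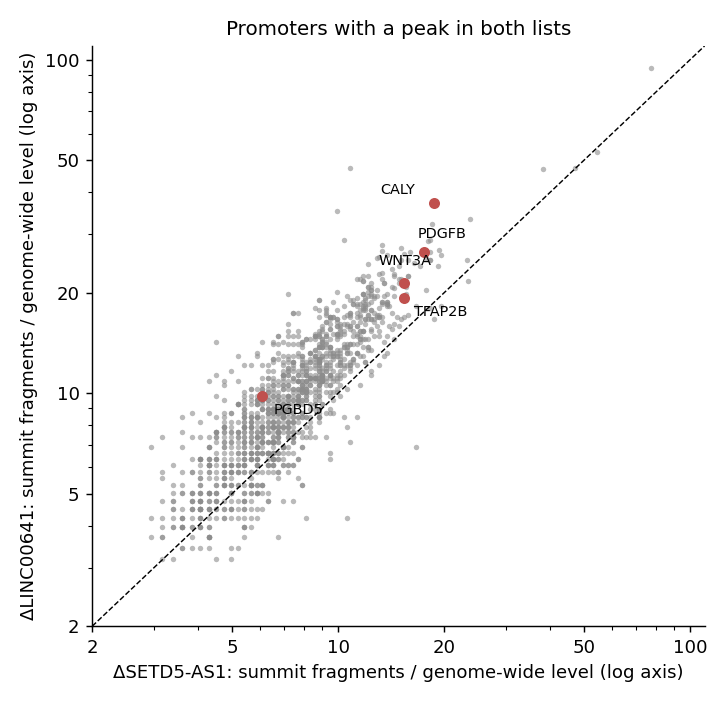
Each point is a protein-coding gene with a promoter peak in both lists (1350 genes), with the summit fragments of its strongest promoter peak over the genome-wide level in ΔSETD5-AS1 (horizontal, log axis) and ΔLINC00641 (vertical, log axis). The dashed line marks equal values. Most points lie above it, and named genes such as CALY (37.3 in ΔLINC00641 and 18.7 in ΔSETD5-AS1) are in red.

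PGBD5, a transposase-derived gene that the study looked at, was marked upon both knockdowns. The study reported that either depletion lowered H3K27me3 around its promoter and activated the gene. The values here set the knockdowns against each other and do not bear on that change from control. In ΔLINC00641 it had one peak at chr1:230562558-230563402 with 37 fragments (26.1 to 51.0) and one at chr1:230560297-230561114 with 30 (20.2 to 42.8). In ΔSETD5-AS1 it had one, at chr1:230560712-230561185, with 27 (17.8 to 39.3) and a −log10 q of 1.70. Relative to the genome-wide level the values were 9.78 and 7.93 in ΔLINC00641 and 6.09 in ΔSETD5-AS1, and the intervals of the fragment numbers overlapped.

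Gene families, several of them known Polycomb targets, were then counted, beside 6.7% of all genes in both lists, 1.93% in ΔLINC00641 only and 1.15% in ΔSETD5-AS1 only. The lists were chosen with earlier results of these data known, so the counts describe them and carry no test. They were drawn up by gene name and do not hold every member of a family. None of the 39 genes in the HOX clusters had a promoter peak in either list, and the cluster spans together held a single peak, of ΔSETD5-AS1 at HOXB. Of 117 other homeobox genes, 19 were marked in both, 4 in ΔLINC00641 only (LMX1B and SHOX among them, with 28 and 20 fragments) and 3 in ΔSETD5-AS1 only (DBX2, GSC2 and IRX4). That small difference depended on the setting, with 4 and 5 when the promoter was taken as 2 kb, and 7 and 0 when only peaks of −log10 q 5 or more were counted. CUX2, a homeobox gene in ΔLINC00641 only with 49 fragments, was not among the 117. Of 125 SOX, T-box, GATA, forkhead and bHLH genes, 19 were marked in both, none in ΔLINC00641 only and 4 in ΔSETD5-AS1 only. Those were BHLHE23, FOXB1, GATA1 and OLIG1, with 19 to 22 fragments each. The FOXB1 peak overlapped a ΔLINC00641 peak 576 bp outside the window, GATA1 had one 1994 bp away, and 2 of the 4 genes had none within 10 kb. Counting only peaks of −log10 q 5 or more, there were 2 in ΔLINC00641 only and 0 in ΔSETD5-AS1 only. TCF24, a bHLH gene in ΔLINC00641 only with 44 fragments, was not among the 125.

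Developmental signal genes marked in both lists were mostly the higher in ΔLINC00641, as were 68.7% of all genes marked in both. Of 87 WNT, FGF, BMP and hedgehog genes, 18 were marked in both, 3 in ΔLINC00641 only (BMP7, FGF20 and GDF7, with 24 to 28 fragments) and 2 in ΔSETD5-AS1 only (BMP3 and GREM1). In 16 of the 18 fold enrichment was higher in ΔLINC00641, with a median log2 ratio of 0.38. The median promoter GC of the 18 was 65.5%, and all shared genes in the highest GC group had a median log2 ratio of 0.319. The 217 neurotransmitter receptor and ion channel genes were the list with the largest share marked, 38.7%. Of them 77 were marked in both, 6 in ΔLINC00641 only and 1, CHRNA3, in ΔSETD5-AS1 only. The 6 were the adrenergic receptor ADRA1D, the glutamate receptors GRIA4 and GRIN1, the serotonin receptor HTR1D and the potassium channels KCNA3 and KCNG2, with 22 to 41 fragments. In 65 of the 77 fold enrichment was higher in ΔLINC00641, and the median log2 ratio was 0.33 beside 0.18 for all genes. Counting only peaks of −log10 q 5 or more, 55 were marked in both, 18 in ΔLINC00641 only and 0 in ΔSETD5-AS1 only. With promoter windows of 500 bp the counts in one list only were 10 and 4, and with 2 kb they were 7 and 4. Asking for no peak of the other list within 10 kb left 4 and 1. The GRIA4 peak overlapped a ΔSETD5-AS1 peak 491 bp outside the window, and KCNA3 had one 506 bp outside. The genes of this list marked in both had a median promoter GC of 58.9%, beside 56.1% for all genes marked in both.

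Of the 9 PAX genes, paired box regulators of organ development, PAX4 was marked in both lists, with 32 and 24 fragments, PAX6 and PAX7 in ΔLINC00641 only, and the other 6 in neither. Peaks lay 2206 bp (ΔLINC00641) and 2225 bp (ΔSETD5-AS1) outside the PAX2 window, and 5718 and 5782 bp outside that of PAX5. PAX7 had 42 fragments in a peak that a ΔSETD5-AS1 peak overlapped 284 bp outside the window, and PAX6 had 26 with the nearest ΔSETD5-AS1 peak at 252359 bp. None of the 7 CDK inhibitor genes (CDKN1A, CDKN1B, CDKN1C, CDKN2A, CDKN2B, CDKN2C and CDKN2D) was marked in either list. The nearest peaks were 41262 bp or more from their windows.

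Among the 33 genes of the Polycomb complexes themselves, BMI1 and CBX8, a chromodomain reader, were marked in ΔLINC00641 only. They had 59 (44.9 to 76.1) and 39 (27.7 to 53.3) fragments, over inputs of 2.49 and 4.40, and ΔSETD5-AS1 peaks lay 62 and 230 bp outside their windows. With a window of 2 kb both were marked in both lists.

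Olfactory receptor genes, with a median promoter GC of 39.2%, were more often in ΔSETD5-AS1 only by count. Of 414 such genes, 62 were marked in both, 27 in ΔLINC00641 only and 39 in ΔSETD5-AS1 only. In 41 of the 62 fold enrichment was the higher in ΔLINC00641, near the 68.7% of all genes marked in both. Their median log2 ratio was 0.12, beside 0.18 for all genes marked in both. Among those in ΔSETD5-AS1 only, OR2F1, OR7G1, OR5M10, OR8H1 and OR52P1 had 20 to 25 fragments. OR2A2 in ΔLINC00641 only had 19. Odorant receptor genes have close paralogs, so the place of their reads is uncertain. When peaks below a −log10 q of 5 were left out the direction turned, with 11 in ΔLINC00641 only and 7 in ΔSETD5-AS1 only. Of 149 keratin and keratin-associated protein genes 13 were marked in both, 6 in ΔLINC00641 only and 5 in ΔSETD5-AS1 only, and of 53 clustered protocadherins, adhesion proteins of neurons, 2, 3 and 2.

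Few zinc finger and ribosomal protein genes were marked. Of 508 ZNF genes 4 were marked in both (ZNF141, ZNF385D, ZNF469 and ZNF804B), 9 in ΔLINC00641 only and 2 in ΔSETD5-AS1 only. Of 84 ribosomal protein genes, used in every dividing cell, 1 was marked, RPL10 on chromosome X in ΔLINC00641 only, with 37 fragments over an input of 4.04. Of 35 imprinted genes, GNAS, KCNK9, PHLDA2 and RTL1 were marked in both, MAGEL2 in ΔLINC00641 only with 15 fragments, and PLAGL1 in ΔSETD5-AS1 only with 24. All 4 shared ones had the higher fold enrichment in ΔLINC00641, as did 68.7% of all genes marked in both. KCNK9, a potassium channel gene, had 103 (84.1 to 125) and 67 (51.9 to 85.1) fragments, and RTL1, a retrotransposon-derived gene, 43 (31.1 to 57.9) and 32 (21.9 to 45.2). DIO3, often counted as imprinted and marked in ΔSETD5-AS1 only with 28 fragments, was not among the 35.

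**Figure D5:**
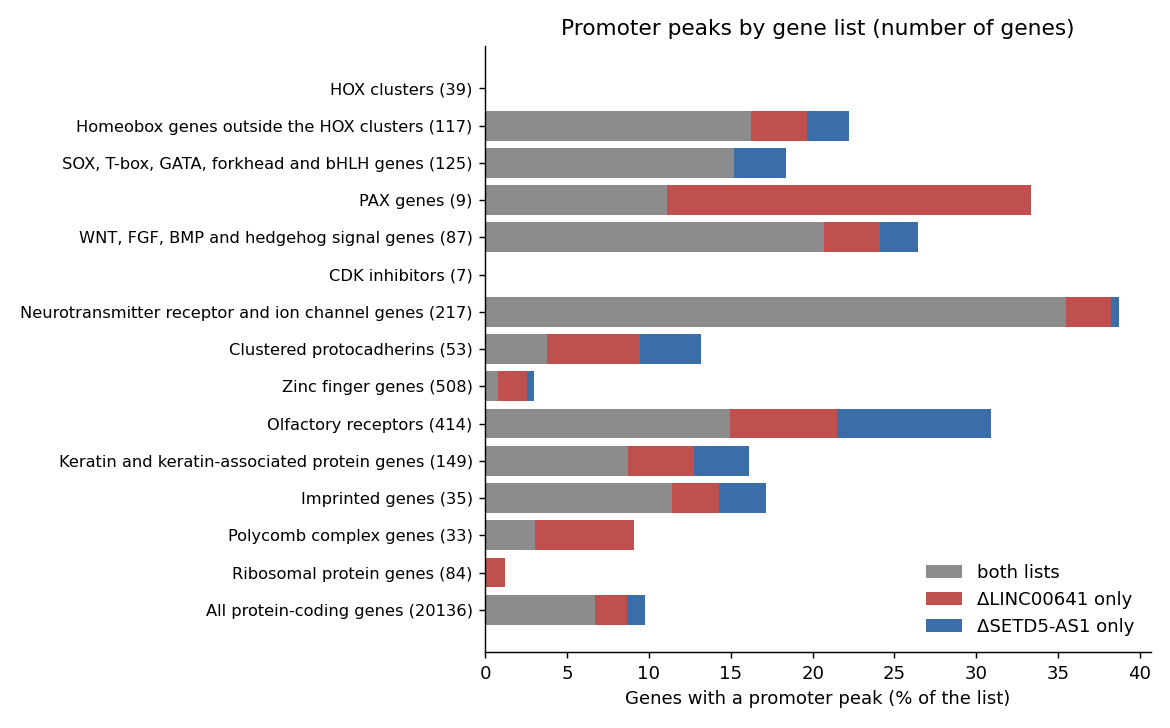
For each gene list, with its number of genes in brackets, the share of genes (horizontal axis, %) with a promoter peak in both lists (grey), in ΔLINC00641 only (red) and in ΔSETD5-AS1 only (blue). Neurotransmitter receptor and ion channel genes reach 38.7% and HOX cluster genes and CDK inhibitors 0%, beside 9.78% of all protein-coding genes.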

How the data were processed

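H3K27me3 ChIP-seq of HEK293T cells after LINC00641 and SETD5-AS1 ASOs was compared through 1 peak list per knockdown, grouped by the sample titles. Per the study's methods and processing notes, read quality was checked by the authors in FastQC 0.11.8 and adapters were cut with Cutadapt 3.3. Bowtie2 2.4.2 was used for alignment to hg19 and GATK for duplicate removal. Reads of all 3 replicates were then pooled, and MACS2 2.2.7.1 called peaks over the pooled input from paired ends. The fold enrichment in each list is a ratio deposited by the authors, and the −log10 p-value and −log10 q-value of each peak were also deposited.

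Whole fragment numbers and local input were solved from fold enrichment and p (relative error under 0.001) for all but 3 ΔLINC00641 peaks and 1 ΔSETD5-AS1 peak. The lowest input of a list was taken as its genome-wide level. Depth was estimated from that level, an effective genome of 2.7e9 bases and the shortest peak as fragment length. A peak was shared with an overlap of at least 1 bp. Pairs overlapped each other and no other peak. Promoters were windows of 1 kb either side of the 5′ end of a gene in GENCODE 44 on GRCh37, whose main chromosomes have hg19 coordinates. Sequences were read from GRCh37, and ASO sequences from the study's supplementary tables. A peak counted as lying in control H3K9me3 when its summit did. No test was made, since lists were called on merged replicates. Wilson and exact Poisson 95% intervals cover counting error only. A place without a peak in a list has no value in it.

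The regions, gene lists and rules were chosen with earlier results of these data known. Named were, in each direction, the 3 strongest peaks in one list only with an input of at most 2 times the genome-wide level and no peak of the other list within 10 kb, the 2 strongest pairs, the 3 pairs with the largest ratio at 30 or more fragments, the 10 strongest promoters in each class, PGBD5 and the target loci, and, of the gene lists, every member of lists of up to 12 genes and otherwise up to 6 in one list only and 4 in both. CHRNA3 falls outside this rule and was named after its values had been seen. Some genes that the rule picks are not reported here. Alternatives are given in the closing section. Sequences were printed for the first promoter of each class outside chromosome 8. The functions were tested on simulated data. The tools were Python 3.11.15 with pandas 2.3.3, scipy 1.17.1, numpy 2.4.6, matplotlib 3.10.9 and pysam 0.24.0.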

Additional observations from a re-analysis of the deposited data

How the results depend on the processing

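Of 74 alternative values over 9 results, 47 stayed within their counting interval, SD over chromosomes or a factor of 1.5, and 27 moved further. The ratio of peak numbers stayed below 1, the median ratio at pairs stayed above 0, and more promoters were in ΔLINC00641 only than in ΔSETD5-AS1 only in each setting, whereas the order of the shares without a partner turned with equal numbers of peaks. That ratio was 0.855 to 0.983, with equal numbers left aside since they fix it at 1. When both lists were limited to a −log10 q of 5 or more, the share without a partner was 52.1% of ΔLINC00641 and 52.5% of ΔSETD5-AS1 peaks, the shared promoters fell to 61.1% of those in either, the promoters in ΔSETD5-AS1 only fell to 120 (ΔLINC00641 only, 365), and the pairs at least 1.5 times higher to 682 and 168. With ΔSETD5-AS1 scaled to the ΔLINC00641 depth the shares without a partner were 38.6% and 42.9%, and with equal numbers of the strongest peaks 41.3% and 41.2%, where the median log2 ratio at pairs was 0.040. An overlap of at least 50% gave 43.7% and 50.2%, a partner within 1 kb 20.3% and 27.3%, and peaks of −log10 q 5 or more set against the other list in full 16.5% and 22%. Merging peaks within 1 kb gave 44.9% for ΔSETD5-AS1. With summit fragments per genome-wide level used instead of fold enrichment the median log2 ratio was 0.155, and 448 pairs were at least 1.5 times higher in ΔSETD5-AS1. Promoter windows of 500 bp and 2 kb gave shared promoters of 63.5% and 70.7%. Chosen after the data were seen, leaving out chromosome X gave 37.2% and 45.4% without a partner and 1234 pairs higher in ΔSETD5-AS1, and asking for no peak of the other list within 10 kb left 181 and 105 promoters. Beyond settings that change the features counted, the cause of these moves was not tested.

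No paired analysis was possible because each list was called on pooled replicates, and for the same reason leaving out a replicate was not run. Depth limits single peaks, whose summits held about 20 fragments. A call is a threshold on significance within a list, and signal below it is not listed.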
